A study of Drosophila melanogaster with 18 samples.

Results

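The proximal X chromosome is the stretch of the fly X that lies nearest the centromere. Its members were taken as every gene of the Illumina table on chromosome X with a start at or above position 19000000, after the sw, AnxB10, Ser6 and CG1304 genes and the named Sdic copies had been left out. This gave 416 of 17972 genes, against 2268 genes on the rest of the X. The first member started at 19050442 and the last ended at 23535859 in the deposited table's coordinates. No source used here gives the genome build. Of the members, 295 were protein coding, 47 were non-coding RNAs and 40 were pseudogenes. No read was counted in any Illumina library for 65 of them, 275 passed the filter on low values of the Illumina test, and 252 of the 294 members with a row in the Nanopore table passed the filter of the Nanopore test.

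RNA was taken from adult flies kept at 25 °C and collected 3 h after lights on, about 70 flies to an extraction. Flies of the first genotype carried the GR23E10-gal4 driver and a UAS transgene for dec2P384R, the form of the DEC2 transcription factor with the familial natural short sleep substitution. Flies of the second carried the same driver and UAS-dec2WT, the unaltered protein, and flies of the third, called control here, carried the driver alone. Each genotype had 3 Illumina libraries (polyA RNA, 150-base paired reads) and 3 Nanopore libraries (direct cDNA), described as independent biological replicates, and whether both platforms read the same RNA is not stated. All 3 genotypes carry the driver, which is widely used to reach neurons of the central brain that promote sleep. A transgene acting in few cells was thus read out in a large mass of other tissue, and fewer cells of a type and less RNA per cell cannot be told apart. Each genotype is 1 combination of stocks, so the transgene and the other genetic differences between stocks cannot be told apart either.

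In Drosophila the male X is transcribed at about the level of both female X chromosomes together, through the MSL dosage compensation complex and its roX RNAs. Toward the centromere, euchromatin gives way to repeat-rich heterochromatin, where genes are farther apart and transposon remnants and tandem gene copies accumulate. The stretch holds the flamenco locus, known for piRNAs that silence transposons in the ovary. The Sdic family, which arose in Drosophila melanogaster from a fusion of AnxB10 and sw, also lies there.

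Illumina libraries held 18057117 to 28293197 reads on genes and Nanopore libraries 1922380 to 4659601 estimated counts. The Nanopore library of dec2WT replicate 1 stood apart from the other 8 in genes of the circadian clock, with 247 counts scaled to library size (CPM) of tim against 28.4 to 44.9, and 199 CPM of vri against 40.5 to 58.7. The 16 yolk and ovary markers, 2 of them without a read, summed to 11.1 to 19.8 FPKM (fragments per kilobase of transcript, scaled to library size) over the Illumina libraries, against 2320 to 3397 FPKM for testis markers. The labels give no sex. Of 5 dosage compensation genes measured, msl-3, whose protein is a subunit of the MSL complex, passed the test in dec2WT against control on Nanopore, at 42.1 ± 10.0 CPM in dec2WT and 10.0 ± 1.96 CPM in control (SD, n = 3 each; edgeR's quasi-likelihood test, Benjamini-Hochberg adjusted p = 0.0312). On Illumina msl-3 was past the threshold in dec2WT against both others, at 8.02 ± 0.507 FPKM in dec2P384R and 16.04 ± 1.37 FPKM in dec2WT, against 7.78 ± 0.728 FPKM in control (SD, n = 3 each). Of the yolk and ovary markers 7 were tested on Illumina and 3 on Nanopore, and only the eggshell gene Cp7Fb was past the threshold. It was lower in dec2WT than in control on both platforms. On Illumina it had 0.168 ± 0.0552 FPKM in dec2WT and 1.48 ± 0.257 FPKM in control (SD, n = 3 each). On Nanopore it had 0.239 ± 0.219 CPM in dec2WT and 2.99 ± 0.807 CPM in control (SD, n = 3 each; edgeR adjusted p = 0.0357). Of 12 accessory gland markers tested on Illumina, only Sfp24Ba and Sfp93F were past the threshold, and of 13 on Nanopore none was. Sfp24Ba was lower on Illumina in both transgenic genotypes, at 28.1 ± 5.204 FPKM in dec2P384R and 31.8 ± 2.65 FPKM in dec2WT, against 64.4 ± 11.8 FPKM in control (SD, n = 3 each). Sfp93F was lower there in dec2WT, at 139 ± 36.2 FPKM in dec2WT and 303 ± 67.7 FPKM in control (SD, n = 3 each). The Illumina sums of the accessory gland markers overlapped between genotypes. They ran over 2322 to 3481 FPKM in dec2P384R, 2515 to 2606 FPKM in dec2WT and 2265 to 3388 FPKM in control. No testis marker was past the threshold by limma on Illumina or edgeR on Nanopore. The part of these genes in any X-linked result was not tested.

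The members together took a small share of the RNA in every library. On Illumina they held 1.64% to 1.72% of all gene reads in dec2P384R libraries, 1.74% to 1.76% in dec2WT libraries and 1.70% to 1.81% in control libraries. On Nanopore the share was 1.85% to 1.96% in dec2P384R libraries, 1.94% to 2.06% in dec2WT libraries and 1.96% to 2.12% in control libraries. The ranges of dec2P384R and control overlapped on both platforms, as did those of dec2WT and control, while dec2P384R lay below dec2WT without overlap on Illumina. As a share of the reads on the X alone, the members held 11.8% to 12.4% in dec2P384R, 11.9% to 12.1% in dec2WT and 11.2% to 11.9% in control on Illumina. On Nanopore that share was 14.8% to 15.4% in dec2P384R, 15.5% to 16.5% in dec2WT and 16.8% to 17.5% in control, and there the genotypes did not overlap. No test was made of these sums. The gene whe alone held 12.3% to 15.7% of the members' Illumina reads. Of their Nanopore counts it held 18.6% to 23.0% in dec2P384R and 20.6% to 24.7% in dec2WT, against 28.5% to 34.1% in control. Without whe the members' Nanopore share of all genes was 1.44% to 1.60% in dec2P384R and 1.54% to 1.55% in dec2WT, against 1.38% to 1.52% in control. There dec2WT lay above control without overlap, and dec2P384R overlapped both. The share of the X is not given without whe, so its separation of the genotypes on Nanopore is not shown for the other members. Levels of different genes are compared here per length, in FPKM, and whe was the highest, with 5248 ± 842 FPKM in dec2P384R, 5568 ± 566 FPKM in dec2WT and 5569.5 ± 160 FPKM in control (SD, n = 3 each). After it came its neighbour lcs (mean of the 9 libraries 3158 FPKM), the mucin-related gene Mur18B (1249 FPKM), the ribosomal protein gene RpS10b (691 FPKM), COX6B of the cytochrome c oxidase complex (486 FPKM) and the odorant-binding protein gene Obp19d (347.8 FPKM). None of these was past the threshold in any comparison on either platform. The nearest was whe on Nanopore, with 3848 ± 400 CPM in dec2P384R, 4682 ± 591 CPM in dec2WT and 6278 ± 790 CPM in control (SD, n = 3 each). Its difference between dec2P384R and control missed the threshold (edgeR's quasi-likelihood test, Benjamini-Hochberg adjusted p = 0.128).

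Few members differed between genotypes on Illumina, and they lay in several parts of the stretch. A gene is called here when its Benjamini-Hochberg adjusted p over all genes tested is under 0.05. The members were chosen by position, on a stretch selected on earlier Illumina results for these genotypes, so the Illumina calls below describe the members and nothing is read from their number. In dec2P384R against control, 10 of 275 members were called, 7 higher and 3 lower, beside 2.8% of all genes tested (1.63% higher, 1.17% lower). In dec2WT against control, 12 of 275 were called, 4 higher and 8 lower, beside 2.61% of all genes (1.22% higher, 1.39% lower). In dec2P384R against dec2WT, 5 of 275 were called, 4 higher and 1 lower, beside 0.783% of all genes (0.499% higher, 0.283% lower). The members' median log2 fold change lay near 0, at -0.03, -0.02 and -0.02 in these comparisons. The first 2 comparisons share the control libraries, and 4 members were called in both of them, a count that was not made over all genes. Leaving out control replicate 2 or control replicate 3 left 3 calls in dec2P384R against control, and leaving out dec2P384R replicate 1 left 6. The share of all genes called fell too, to 1.34% and 1.44% without these controls and 2.12% without dec2P384R replicate 1. In dec2WT against control, 5 calls were left without control replicate 1, 6 without control replicate 3 and 7 without dec2WT replicate 2 or replicate 3. There the shares of all genes were 1.52%, 1.49%, 1.36% and 1.46%, in that order. In dec2P384R against dec2WT, 3 calls were left without dec2P384R replicate 2, beside 0.488% of all genes.

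**Figure D1:**
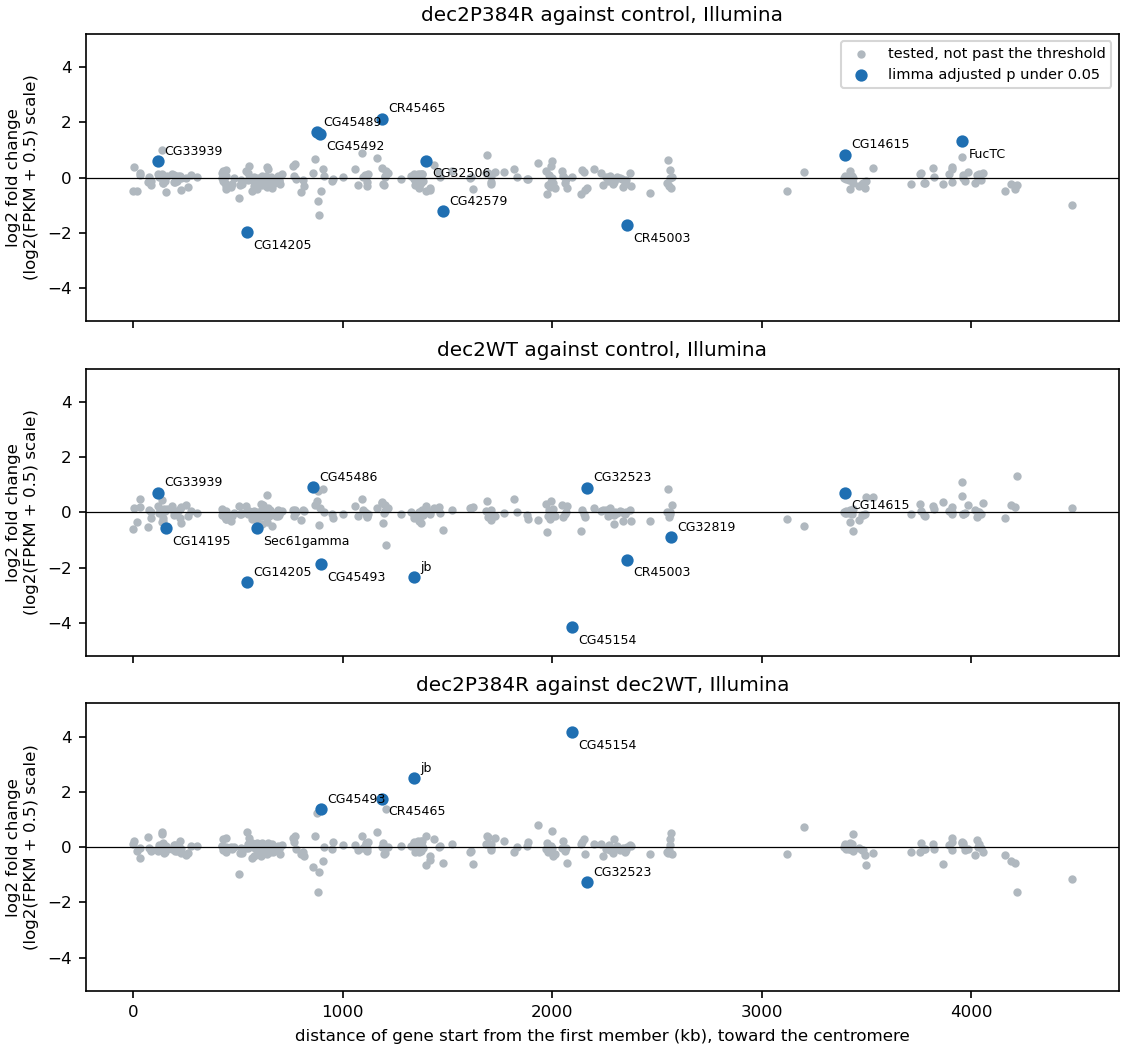
Illumina log2 fold change of each tested member (y axis, log2(FPKM + 0.5) scale) against the distance of its start from the first member in kb (x axis), with dec2P384R against control on top, dec2WT against control in the middle and dec2P384R against dec2WT at the bottom. Blue points are the 10, 12 and 5 called members. They stand between grey neighbours that lie near 0, and CG45154 lies farthest from 0 in the lower 2 panels.

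The Nanopore libraries gave fewer calls. The genes were chosen with earlier results of these data known, and whether both platforms read the same RNA is not stated. The Nanopore tests are thus not taken as independent of that choice. In dec2P384R against control, 2 of 252 members passed the test, 1 higher and 1 lower, beside 0.474% of all genes tested (0.219% higher, 0.255% lower). In dec2WT against control, 5 of 252 passed, 3 higher and 2 lower, beside 0.799% of all genes (0.29% higher, 0.509% lower). In dec2P384R against dec2WT, 3 of 252 passed, 2 higher and 1 lower, beside 0.132% of all genes (0.0702% higher, 0.0614% lower). The members' median log2 fold change on Nanopore was 0.02, 0.01 and -0.04. Of the 7 members called on Nanopore in any comparison, 5 belong to runs of gene copies described below. Without all 33 members of such runs, a choice made after the values were seen, the Nanopore counts fell to 0, 2 and 1 and the Illumina counts to 8, 9 and 4. In dec2P384R against control, where edgeR's test called 0 of the 234 other members, 35 had an unadjusted p under 0.05 and DESeq2 called 3. Over all genes 1256 of 11393 had an unadjusted p under 0.05 by edgeR's test, and DESeq2 called 0.754%. The Nanopore count in dec2P384R against control was 1 without dec2P384R replicate 1 or 2, dec2WT replicate 3, or control replicate 1 or 2, and 4 without dec2P384R replicate 3 or dec2WT replicate 2. Over all genes the share called was 0.234% to 0.399% in the former fits and 0.606% in each of the latter.

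The platforms differed in where along the stretch the calls lay. On Nanopore 1 bin of 0.5 Mb, which starts at 19.5 Mb and had 69 tested members, held both calls in dec2P384R against control, 4 of the 5 in dec2WT against control and 1 of the 3 in dec2P384R against dec2WT. On Illumina the same bin, with 65 tested members, held 3 of 10, 4 of 12 and 1 of 5, and the other calls lay in several other bins. In bins of 1 Mb with at least 20 tested genes, the share called on Illumina ran over 1.96% to 4.69% in dec2P384R against control, 1.56% to 7.84% in dec2WT against control and 0% to 3.92% in dec2P384R against dec2WT. The same bins elsewhere on the X reached 6.06% in dec2P384R against control, at 12 Mb. In dec2P384R against dec2WT the highest bin, 4.4%, started at 8 Mb. In dec2WT against control 2 of the 23 bins of the X stood nearly level at the top. The bin at 8 Mb had 7 called of 91 tested genes (7.69%). A proximal bin, which starts at 21 Mb, had 4 called of 51 tested genes (7.84%). These genes were CG45154, CG32523, lncRNA:CR45003 and CG32819. On Nanopore the highest bin of this comparison started at 19 Mb, with 4 called of 112 (3.57%), and 3 of those 4 belong to 1 run of copies. The bin at 6 Mb followed it, with 3 called of 99 (3.03%). The genes nearest the limit of the stretch on its inside were Diedel3, CG14190 and CG34330. Their Illumina log2 fold changes were -0.47, 0.37 and -0.47 in dec2P384R against control. The nearest outside were CG43759, lncRNA:CR44708 and CG7378, at -0.35, 0.90 and -0.10. None of these 6 was called on Illumina. On Nanopore lncRNA:CR44708 was not tested, and the others were not called.

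**Figure D2:**
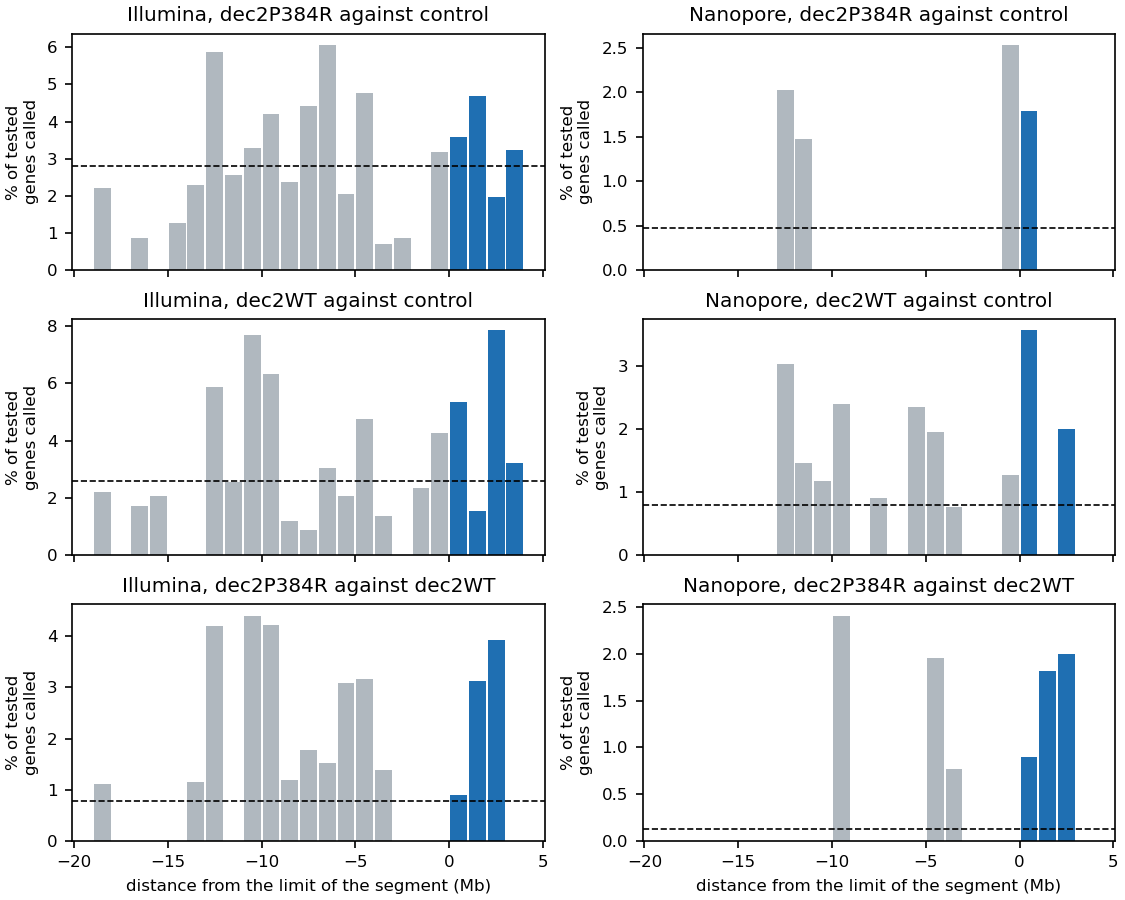
Percent of tested genes called in 1 Mb bins of the X (y axis) against the distance of the bin's start from the limit of the stretch in Mb (x axis), for Illumina on the left and Nanopore on the right. Blue bars are bins of the proximal stretch, grey bars the rest of the X, the dashed line is the share over all genes, and bins with under 20 tested genes are not drawn. Bars above the line stand on both sides of the limit.

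The clearest single difference belonged to CG45154, a short protein-coding gene at X:21146281-21147041. Illumina reads numbered 142, 89 and 86 in dec2P384R libraries and 0, 0 and 0 in dec2WT libraries, against 150, 120 and 97 in control libraries. All 3 dec2WT libraries lacked a read and every dec2P384R library had at least 86. In FPKM this was 8.49 ± 1.28 in dec2P384R and 8.62 ± 2.49 in control (SD, n = 3 each). Counted against a floor of 3 reads per library, CG45154 was at least 38.0-fold lower in dec2WT than in control, and at least 37.4-fold higher in dec2P384R than in dec2WT. The Nanopore libraries repeated the pattern, with 34.9, 37.3 and 36.8 estimated counts in dec2P384R and 0, 1.05 and 4.33 in dec2WT, against 52.2, 32.7 and 46.1 in control. CG45154 fell in dec2WT against control, with a log2 fold change of -4.64 ± 0.51 (SE; edgeR's quasi-likelihood test, Benjamini-Hochberg adjusted p = 0.000683). It was higher in dec2P384R than in dec2WT by a log2 fold change of 4.90 ± 0.51 (SE; adjusted p = 0.00212 by the same edgeR test), and in dec2P384R against control the log2 fold change was 0.26 ± 0.31 (SE). No call of CG45154 was lost under the alternative settings run on either platform.

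A second gene without reads in dec2WT was jb, at X:20390096-20390806. It had 37, 30 and 18 Illumina reads in dec2P384R and 0, 0 and 0 in dec2WT, against 20, 36 and 32 in control. It was at least 8.89-fold lower in dec2WT than in control and at least 10.1-fold higher in dec2P384R than in dec2WT, against the same floor. Nanopore counts of jb were too low for the test, at 3, 8 and 11 in dec2P384R and 0, 1 and 2 in dec2WT, against 12, 8 and 9 in control. Here again dec2WT did not overlap the other genotypes.

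The gene CG15322, at X:20133579-20138878, ran the other way and was under the filter on low values. It had 0, 0 and 1 Illumina reads in dec2P384R and 47, 22 and 40 in dec2WT, against 7, 12 and 2 in control. On Nanopore it had 1, 1 and 1 counts in dec2P384R and 5, 3 and 4.01 in dec2WT, against none in control, so the 2 platforms placed dec2WT highest and differed on the order of the others. The authors' deposited table for dec2WT against control lists CG15322 with a log2 fold change of 2.49, and the authors' deposited table for dec2P384R against dec2WT lists it with -6.51.

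A pair of long non-coding RNAs had reads mainly in 1 genotype. The RNA lncRNA:CR45465, at X:20238383-20239117, had 31, 35 and 16 Illumina reads in dec2P384R and 2, 0 and 8 in dec2WT, against 1, 0 and 0 in control. Its dec2P384R libraries all lay above the rest, and its call against dec2WT was lost without dec2P384R replicate 1 or 2 or dec2WT replicate 1 or 2, with a pseudocount of 0.1, with edgeR on recovered reads and with the compared libraries alone. The RNA lncRNA:CR45003, at X:21409402-21410546, had 0, 0 and 0 reads in dec2P384R and 0, 0 and 0 in dec2WT, against 14, 16 and 21 in control. It was at least 4.83-fold lower in dec2P384R and at least 5.26-fold lower in dec2WT than in control. Whichever control library was left out, lncRNA:CR45003 fell under the filter on low values and was not tested. Neither RNA has a row in the Nanopore table.

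The gene CG14205, at X:19592609-19595548, was lower in both transgenic genotypes. It had 0.582, 0.810 and 1.05 FPKM in dec2P384R and 0.419, 0.287 and 0.481 FPKM in dec2WT, against 4.93, 6.32 and 3.199 FPKM in control. All 6 transgenic libraries lay under the lowest control library. On the log2(FPKM + 0.5) scale, which understates the change of low genes, the Illumina log2 fold changes were -1.99 ± 0.23 in dec2P384R and -2.53 ± 0.23 in dec2WT against control (SE). Nanopore counts were 7, 7 and 18 in dec2P384R and 1, 3 and 2 in dec2WT, against 89, 38 and 36.8 in control. The fall in dec2WT passed the Nanopore test, at a log2 fold change of -4.70 ± 0.59 (SE; edgeR's quasi-likelihood test, Benjamini-Hochberg adjusted p = 0.00142). In dec2P384R the value was -1.81 ± 0.44 (SE; adjusted p = 0.132 by the same edgeR test), which missed the threshold. The log2 fold change between dec2P384R and dec2WT on Nanopore was 2.89 ± 0.74 (SE; edgeR adjusted p = 0.292).

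**Figure D3:**
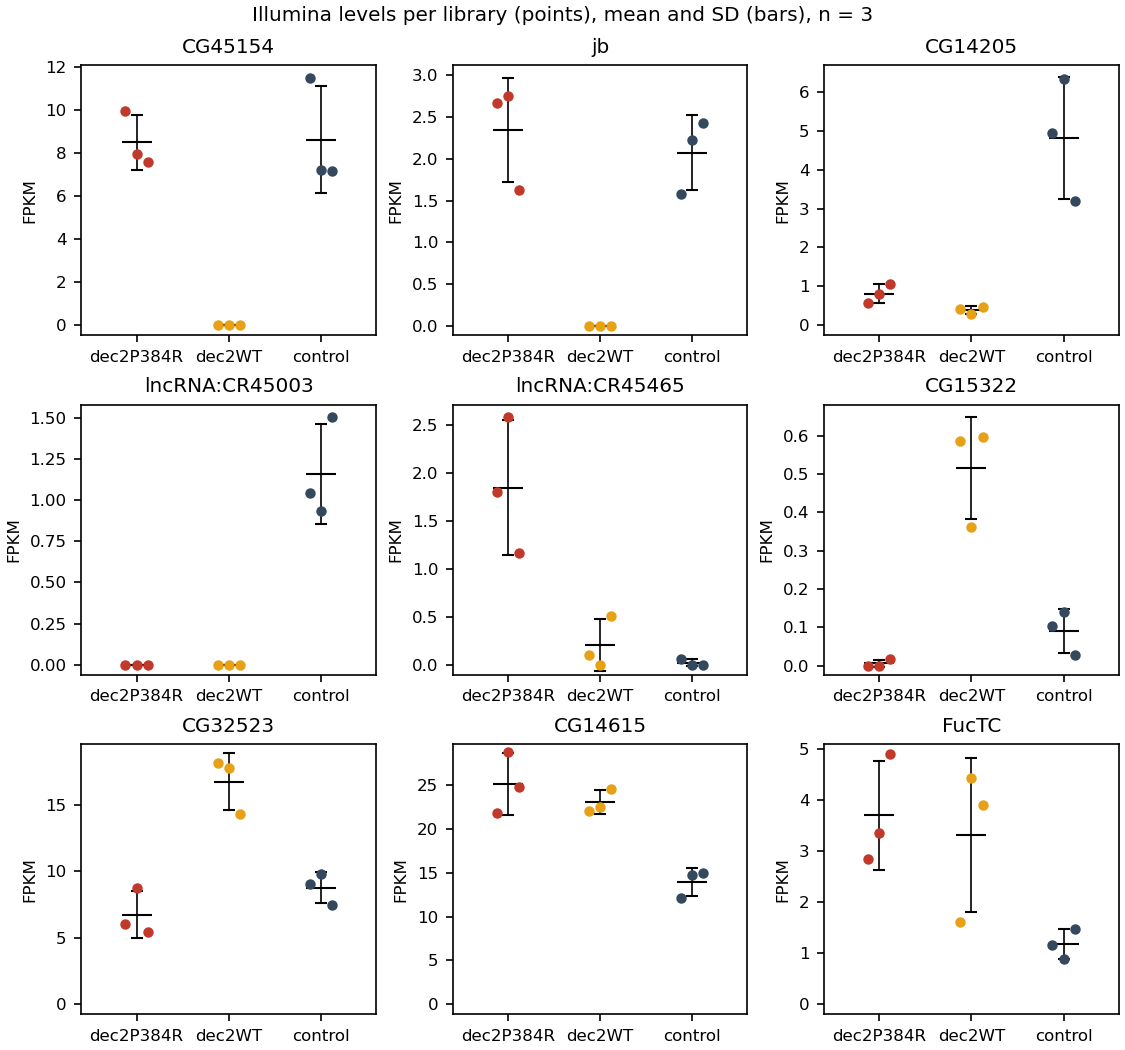
Illumina FPKM (y axis of each panel) of 9 members in each library, with dec2P384R, dec2WT and control from left to right, points for the 3 libraries and bars for the mean and SD. CG45154 and jb are at 0 in the 3 dec2WT libraries, lncRNA:CR45003 is at 0 in all 6 transgenic libraries, and CG14205 is lower in all 6 transgenic libraries than in any control library.

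CG14615 and CG33939 were modestly higher in both transgenic genotypes. CG14615 had 21.9, 28.9 and 24.8 FPKM in dec2P384R and 22.1, 22.5 and 24.7 FPKM in dec2WT, against 12.2, 14.7 and 15.0 FPKM in control. Its Illumina log2 fold changes were 0.83 ± 0.12 in dec2P384R and 0.71 ± 0.12 in dec2WT against control (SE). On Nanopore, where the groups did not overlap either, they were 0.96 ± 0.20 and 0.49 ± 0.20 (SE; edgeR's quasi-likelihood test, Benjamini-Hochberg adjusted p = 0.0592 and 0.400), both short of the threshold. CG14615 overlaps CG14621 on the opposite strand, and as no source used here says that strand was used in counting, their reads cannot be told apart. CG33939 had 5.77, 6.06 and 6.10 FPKM in dec2P384R and 6.88, 5.70 and 7.29 FPKM in dec2WT, against 4.29, 3.76 and 3.48 FPKM in control. Its Nanopore log2 fold changes of 1.05 ± 0.26 and 0.59 ± 0.26 (SE) missed the threshold too, with edgeR adjusted p = 0.141 and 0.466. On Illumina the dec2WT call of CG14615 was lost without dec2WT replicate 2 or 3 or control replicate 1, and that of CG33939 without dec2WT replicate 3 or control replicate 3. The dec2P384R call of CG33939 was lost whichever dec2P384R library was left out, without control replicate 2 or 3, with edgeR or DESeq2 on recovered reads and with the compared libraries alone.

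FucTC, which belongs to the fucosyltransferases that build sugar chains on glycoproteins, had 2.85, 3.35 and 4.89 FPKM in dec2P384R and 1.61, 4.44 and 3.91 FPKM in dec2WT, against 1.16, 0.893 and 1.48 FPKM in control. Every transgenic library lay above every control library. On Illumina it was called in dec2P384R (log2 fold change 1.31 ± 0.30, SE) and not in dec2WT (1.11 ± 0.30, SE), and the difference between these 2 genotypes was 0.20 ± 0.30 (SE). On Nanopore neither passed (1.51 ± 0.42 and 1.72 ± 0.40, SE; edgeR adjusted p = 0.189 and 0.0836). FucTC overlaps asRNA:CR45009 and lncRNA:CR45010 on the opposite strand. The RUN-domain gene CG32506 (tbc in the Ensembl annotation) was called higher in dec2P384R, at 1.64 ± 0.207 FPKM in dec2P384R and 1.13 ± 0.0417 FPKM in dec2WT, against 0.903 ± 0.0717 FPKM in control (SD, n = 3 each). That call was lost whichever library was left out, with replicate number as a block, with a pseudocount of 0.1 and with the compared libraries alone. The call of FucTC was lost without dec2WT replicate 3, whichever library of dec2P384R or control was left out, with a pseudocount of 1 and with no filter on low values.

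CG32523, annotated in the deposited table with a trypsin domain, was highest in dec2WT. It had 6.02, 8.74 and 5.47 FPKM in dec2P384R and 18.2, 17.8 and 14.3 FPKM in dec2WT, against 9.08, 9.78 and 7.49 FPKM in control. The dec2WT libraries lay above all 6 others on both platforms. On Nanopore its log2 fold change was 1.11 ± 0.24 in dec2WT against control and -1.08 ± 0.25 in dec2P384R against dec2WT (SE; edgeR's quasi-likelihood test, Benjamini-Hochberg adjusted p = 0.0584 and 0.186), short of the threshold in both. Its Illumina call against control was lost without dec2WT replicate 1 or 2 or control replicate 1 or 3. CG32523 lies within CG32521 (Mnr in the Ensembl annotation) on the opposite strand.

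A further 3 members were called lower on Illumina. Sec61gamma, a subunit of the channel that carries new proteins into the endoplasmic reticulum, averaged 56.8 ± 4.63 FPKM in dec2WT and 84.4 ± 5.11 FPKM in control (SD, n = 3 each). On Nanopore it pointed the other way, at 124 ± 7.87 CPM in dec2WT and 103 ± 2.97 CPM in control (SD, n = 3 each), a difference that missed the threshold (edgeR adjusted p = 0.663). CG14195 averaged 4.28 ± 0.426 FPKM in dec2WT and 6.58 ± 0.743 FPKM in control (SD, n = 3 each), with a log2 fold change of -0.57 on Illumina and -0.53 on Nanopore. CG42579 averaged 0.886 ± 0.566 FPKM in dec2P384R and 2.51 ± 0.110 FPKM in control (SD, n = 3 each), from 3, 11 and 7 reads in dec2P384R and 23, 29 and 22 in control. The call of Sec61gamma was lost without dec2WT replicate 1 or 3 or control replicate 1 or 3. The call of CG14195 was lost whichever library was left out, except dec2P384R replicate 2 or 3, and with no filter on low values. That of CG42579 was lost whichever library was left out, except dec2P384R replicate 2 or dec2WT replicate 1. It was also lost with edgeR or DESeq2 on recovered reads, a pseudocount of 0.1, no filter on low values and the compared libraries alone.

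Within a run of gene copies the platforms gave opposite answers for CG45489. For some other copies, such as CG45486, they pointed the same way. From CG45486 to CG12655, at X:19909318-19959403, 24 neighbouring members comprise 11 protein-coding genes, whose transcripts are 600 to 646 bases long, and 13 pseudogenes. They are called copies here from their adjacent places, serial names and like lengths, and their sequences were not compared. If they are near-identical, reads may be split among them in the authors' counting, so the value of each is uncertain. The protein-coding copies summed to 27.5 ± 8.91 FPKM in dec2P384R and 33.9 ± 4.41 FPKM in dec2WT, against 22.9 ± 3.36 FPKM in control (SD, n = 3 each). On Nanopore they summed to 193 ± 14.9 CPM in dec2P384R and 268 ± 33.5 CPM in dec2WT, against 173 ± 32.7 CPM in control (SD, n = 3 each). The sums thus differed by less than the copies with the widest differences, and dec2WT had the highest mean on both platforms. On Illumina dec2P384R replicate 1, at 37.5 FPKM, lay within the 29.1 to 37.8 FPKM of the dec2WT libraries. On Nanopore dec2WT did not overlap the other genotypes.

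The copy CG45489 carried the sharpest disagreement. It had 60, 17 and 21 Illumina reads in dec2P384R and 4, 10 and 15 in dec2WT, against 6, 4 and 7 in control, with dec2P384R above both others. On Nanopore it had 1.11, 0 and 1.33 estimated counts in dec2P384R and 62.1, 45.3 and 43.8 in dec2WT, against 26.7, 39.1 and 41.6 in control, with dec2P384R far below both others. Its Illumina log2 fold change in dec2P384R against control was 1.65 ± 0.35 (SE), and on Nanopore it was -5.10 ± 0.56 (SE; edgeR's quasi-likelihood test, Benjamini-Hochberg adjusted p = 0.000696). In dec2P384R against dec2WT the Nanopore value was -5.51 ± 0.53 (SE; edgeR adjusted p = 0.0017). The Illumina call was lost without dec2P384R replicate 1 or 3, whichever control library was left out, and with no filter on low values. Both Nanopore calls held whichever library was left out.

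Other copies of the run passed the Nanopore test, and their Illumina values matched this to differing degrees. CG45487 had at most 7 Illumina reads in any library. On Nanopore it had 24.02, 33.5 and 29.2 counts in dec2P384R and 85.1, 84.0 and 77.6 in dec2WT, against 12.5, 4.03 and 17.2 in control. CG45487 rose in dec2P384R by a log2 fold change of 1.83 ± 0.34 and in dec2WT by 2.82 ± 0.31 (SE; edgeR's quasi-likelihood test, Benjamini-Hochberg adjusted p = 0.0344 and 0.000683), and the first of these calls was lost whichever dec2P384R library was left out, without dec2WT replicate 3 or control replicate 1 or 2, with the compared libraries alone and with the replicate block. CG45486 rose in dec2WT on Nanopore, at 48.6 ± 13.8 CPM in dec2WT and 10.7 ± 3.32 CPM in control (SD, n = 3 each; edgeR adjusted p = 0.00259), and was higher there on Illumina too, at 8.07 ± 2.09 FPKM in dec2WT and 4.02 ± 0.801 FPKM in control (SD, n = 3 each). CG45492 rose in dec2WT on Nanopore, at 62.1 ± 9.72 CPM in dec2WT and 26.7 ± 9.21 CPM in control (SD, n = 3 each; edgeR adjusted p = 0.0213), but was called on Illumina only in dec2P384R, at 1.55 ± 0.288 FPKM in dec2P384R and 0.182 ± 0.0958 FPKM in control (SD, n = 3 each). Its log2 fold change in dec2WT on Nanopore was 1.16, and the call was lost, at values of 0.95 to 1.19, without dec2WT replicate 1 or 3 or control replicate 1 or 2. CG45493 had 19, 23 and 19 Illumina reads in dec2P384R and 10, 1 and 4 in dec2WT, against 37, 37 and 37 in control. On Nanopore its log2 fold change was -0.53 ± 0.20 in dec2WT against control and 1.16 ± 0.20 in dec2P384R against dec2WT (SE; edgeR adjusted p = 0.373 and 0.0555), in the direction of Illumina and short of the threshold. The Illumina call of CG45486 in dec2WT was lost whichever library was left out, except dec2P384R replicate 1 or dec2WT replicate 3, with a pseudocount of 0.1 or 1, with no filter on low values and with the compared libraries alone. That of CG45492 in dec2P384R was lost whichever dec2P384R or control library was left out and with a pseudocount of 0.1. That of CG45493 against dec2WT was lost without dec2P384R replicate 2 or 3 or dec2WT replicate 2 or 3, with edgeR on recovered reads and with the compared libraries alone.

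**Figure D4:**
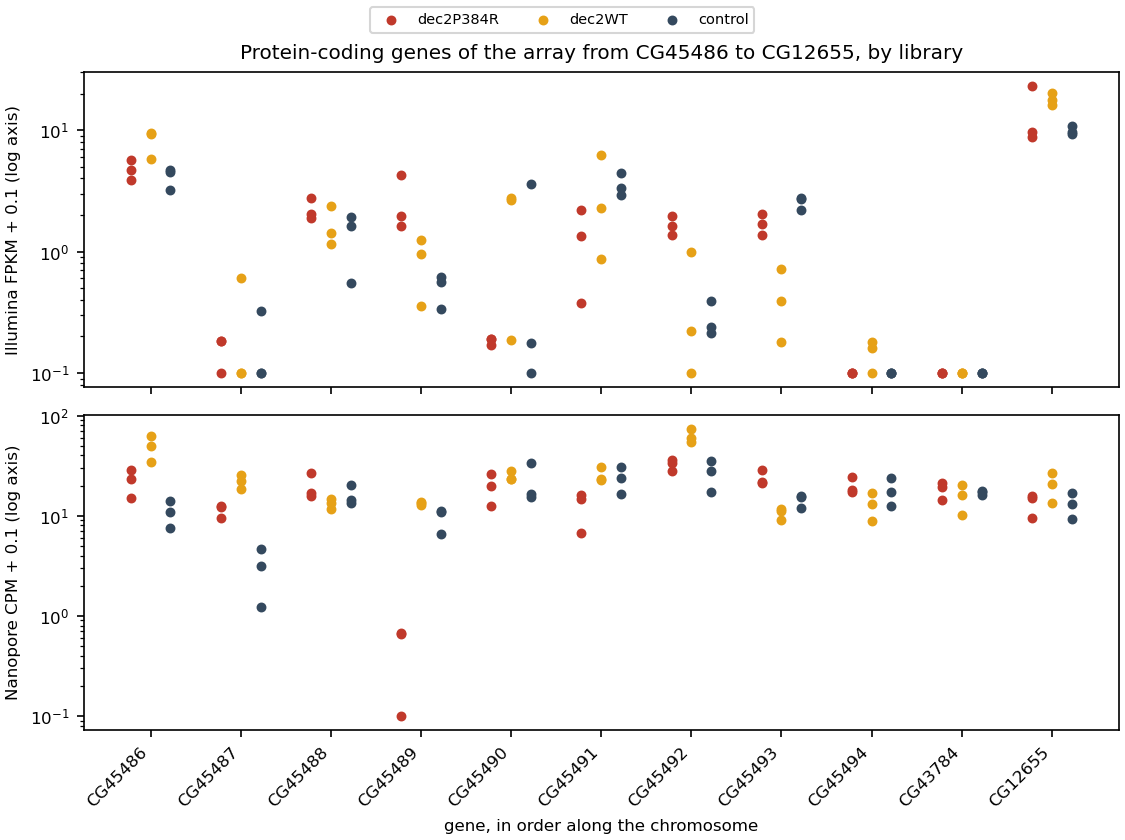
Levels of the 11 protein-coding copies in chromosome order (x axis), with Illumina FPKM + 0.1 above and Nanopore CPM + 0.1 below, each on a log axis (y), and points for libraries with dec2P384R, dec2WT and control from left to right in each gene. CG45489 is highest in dec2P384R on Illumina and near 0 there on Nanopore, and CG45494 and CG43784 have Nanopore counts in every library with at most 1 Illumina read.

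The Ensembl annotation of the fly (BDGP6.54) names 3 members as further Sdic copies, CG46275 as SdicA, CG46276 as SdicB and CG46277 as SdicC. Sdic is known for a sperm-specific dynein intermediate chain. CG46277 had 54.3, 62.7 and 73.1 Nanopore counts in dec2P384R and 0, 8.998 and 0 in dec2WT, against 32.3, 24.1 and 30.2 in control, so the genotypes did not overlap. It was higher in dec2P384R than in dec2WT by a log2 fold change of 4.90 ± 0.61 (SE; edgeR's quasi-likelihood test, Benjamini-Hochberg adjusted p = 0.00384), while against control dec2WT missed the threshold (-3.23 ± 0.68, SE; edgeR adjusted p = 0.0512). Its Illumina reads differed far less, at 90, 50 and 51 in dec2P384R and 50, 36 and 31 in dec2WT, against 43, 17 and 45 in control. CG46275 had 8, 5 and 6 Illumina reads in dec2P384R and 0, 0 and 0 in dec2WT, against 21, 32 and 15 in control, and stayed under the filter on low values. Summed testis markers overlapped between the genotypes, at 2686 to 3397 FPKM in dec2P384R and 2724 to 2942 FPKM in dec2WT, against 2320 to 3347 FPKM in control.

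A second run of 6 genes, from CG17450 to CG32500 at X:21605884-21623750, whose sequences were not compared either, showed smaller differences in its sums. Together the 6 genes had 23.6 ± 4.60 FPKM in dec2P384R and 23.0 ± 0.890 FPKM in dec2WT, against 20.2 ± 2.88 FPKM in control (SD, n = 3 each). On Nanopore they had 188 ± 15.6 CPM in dec2P384R and 240 ± 14.8 CPM in dec2WT, against 197 ± 23.0 CPM in control (SD, n = 3 each). All 3 dec2WT libraries lay above the 6 others on Nanopore, which they did not on Illumina. CG32819 was called lower on Illumina in dec2WT, at 0.887 ± 0.223 FPKM in dec2WT and 2.08 ± 0.326 FPKM in control, a call lost without dec2WT replicate 2 or 3 or control replicate 1. On Nanopore CG32819 had 77.5 ± 12.3 CPM in dec2WT and 73.2 ± 6.35 CPM in control (SD, n = 3 each), a log2 fold change of 0.02 ± 0.16 (SE).

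Set against each other, the platforms mostly gave the same sign, as they did over all genes. Outside the runs of copies, of members called on Illumina and tested on Nanopore, 6 of 6 had the same sign in dec2P384R against control. This held for 6 of 7 in dec2WT against control and 2 of 2 in dec2P384R against dec2WT. With the runs included, 10 members were called on Illumina in dec2P384R against control and 8 of them were tested on Nanopore. Of these, 7 had the same sign there, against 88.8% of all genes so called and tested. In dec2WT against control this held for 8 of 10, against 92.6% of all genes, and in dec2P384R against dec2WT for 3 of 3, against 92.4%. The exceptions were CG45489 in the first comparison, and Sec61gamma and CG32819 in the second. In the 3 comparisons 1 of 8, 3 of 10 and 1 of 3 of these members were called on Nanopore too. Over all genes this held for 38 of 233, 55 of 217 and 11 of 66. Across all comparisons 20 members were called on either platform and 5 on both, counts that were not made over all genes. Among those 5, CG45489 had opposite signs on Illumina and Nanopore. CG45492 was called in dec2P384R against control on Illumina and in dec2WT against control on Nanopore. The 20 included 18 protein-coding genes, and 17 had only a CG or CR number for a name, as 215 of all 416 members did. The genes called on either platform had a median length of 690.5 bases. Members tested on Illumina, a set drawn otherwise, had 1852. The called genes include short members of the runs of copies, and no such median was taken over all genes. Members called on Illumina had a median level of 1.81 FPKM, against 7.35 FPKM for members tested there.

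**Figure D5:**
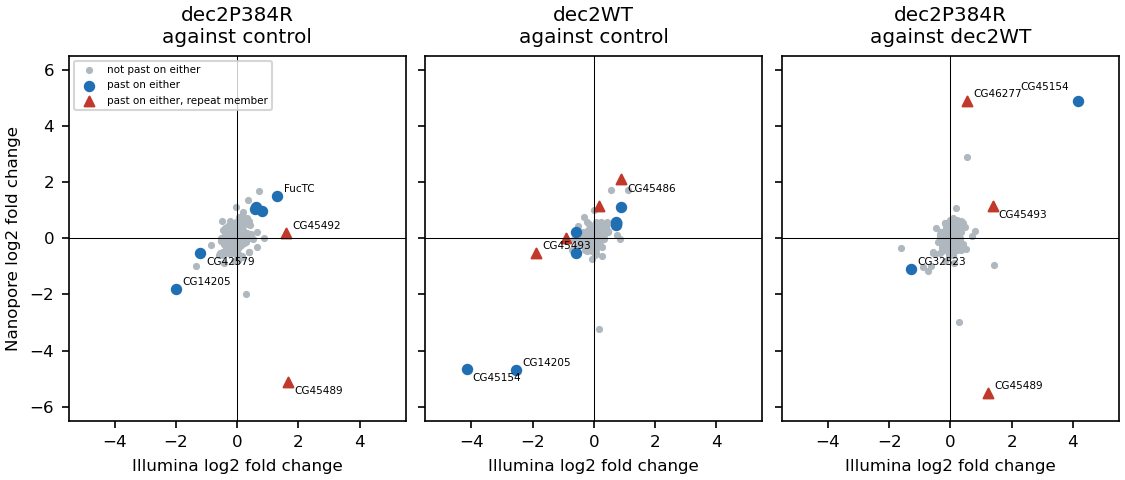
Nanopore log2 fold change (y axis) against Illumina log2 fold change (x axis) of each member tested on both platforms, for dec2P384R against control, dec2WT against control and dec2P384R against dec2WT from left to right. Grey points passed on neither platform, blue circles on at least 1, and red triangles mark members of runs of copies that did, among them CG45489 with opposite signs.

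Some members were read by 1 platform only. In 13 of 294 members with rows on both, every Illumina library had at most 3 reads and every Nanopore library at least 10 counts, as in 278 of 13874 genes overall. The genes stnA and stnB, whose products act in recycling synaptic vesicles and which share 1 start and end in the deposited table, had 0 Illumina reads in all 9 libraries. On Nanopore stnA had 23.6 ± 4.90 CPM in dec2P384R and 16.8 ± 1.00 CPM in dec2WT, against 23.9 ± 9.80 CPM in control (SD, n = 3 each). Other such pairs were CG12788 with Tim9b, a mitochondrial import chaperone, CG33932 with Rpp20, a ribonuclease P subunit, and CG33713 with SLIRP1. Other genes of the kind were Shawn, which shares its start with Tyler, and CG40813, CG32500, CG45494 and CG43784. For these members 0 or few reads on Illumina stood beside counts on Nanopore. The flamenco RNA lncRNA:flam had 0 to 2 Illumina reads in any library and no Nanopore row.

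Lists of genes with known functions on the stretch, chosen with earlier results known, do not hold Sec61gamma and FucTC, which are described above. Of 32 genes in lists of odorant-binding proteins, nervous system and behaviour, metabolism, and signalling and development, 27 lie on the stretch, 23 were tested on Illumina and 24 on Nanopore. In each of the 3 comparisons 0 were called, by limma on Illumina and by edgeR's test on Nanopore, with 1 or 2 at an unadjusted p under 0.05, beside the 0.132% to 2.8% of all genes called in these comparisons. Over all genes, 1083 to 1893 of 13418 had such an unadjusted p on Illumina and 819 to 1256 of 11393 on Nanopore. DESeq2 on Nanopore also called 0, and on recovered Illumina reads edgeR and DESeq2 each called 1, Cyp6t1, in dec2P384R against control, as did limma with the replicate block. The median log2 fold change was -0.10 in dec2P384R and -0.03 in dec2WT against control on Illumina, and 0.02 and 0.01 on Nanopore. The Illumina log2 fold changes against control ran from -0.57 to 0.14 in dec2P384R and from -0.41 to 0.27 in dec2WT, and those of dec2P384R against dec2WT from -0.34 to 0.19. On Nanopore they spread wider, from -0.53 to 0.76 in dec2P384R and -0.56 to 0.39 in dec2WT against control, and from -0.41 to 0.86 in dec2P384R against dec2WT. Cyp6t1, a cytochrome P450 gene, had the lowest of the Illumina log2 fold changes in dec2P384R against control, at 11.6 FPKM on average in dec2P384R and 13.9 FPKM in dec2WT, against 17.4 FPKM in control.

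Zw, which encodes glucose-6-phosphate dehydrogenase of the pentose phosphate pathway, averaged 67.9 FPKM in dec2P384R and 60.5 FPKM in dec2WT, against 79.9 FPKM in control. The proline dehydrogenase gene slgA stood at 34.4 FPKM in dec2P384R, 36.4 FPKM in dec2WT and 35.0 FPKM in control. Among signalling genes, the small GTPase gene Cdc42 averaged 41.5 FPKM in dec2P384R, 38.5 FPKM in dec2WT and 42.9 FPKM in control. The protein phosphatase gene Pp4-19C averaged 13.1 FPKM in dec2P384R, 13.1 FPKM in dec2WT and 13.0 FPKM in control. The kinase gene Tao averaged 8.45 FPKM in dec2P384R, 9.81 FPKM in dec2WT and 10.1 FPKM in control. The innexin gene shakB, a gap junction subunit of electrical synapses, had 0.721 ± 0.187 FPKM in dec2P384R and 0.734 ± 0.0151 FPKM in dec2WT, against 0.680 ± 0.104 FPKM in control (SD, n = 3 each). The memory gene amn, which encodes a neuropeptide, averaged under 0.2 FPKM in each genotype and was tested on Nanopore only, and the pair-rule gene run was under the filter on both platforms.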

How the data were processed

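RNA of 3 fly genotypes was sequenced in 9 Illumina and 9 Nanopore libraries, 3 per genotype and platform. The deposited Illumina gene table, though named as counts, holds FPKM by the authors, per the file headers and the values. Its FPKM values gave whole reads for 100% of entries within 1e-08, and these recovered reads are the Illumina reads printed. The deposited Nanopore table holds estimated counts, 55.1% of them not whole, which were rounded for the test. The authors' deposited tables of Illumina comparisons give log2 fold changes and adjusted p-values, and only values credited to them come from there. Salmon, minimap2, DESeq2, HISAT2 and featureCounts (1.5.0-p3) are listed, with no role, in the submitters' processing notes. The genome build is not given in the sources used here. A further 36 columns of per-library values in the deposited comparison tables were not used. In 1 Illumina column the digits of the mutant's name are exchanged, and it was taken as dec2P384R replicate 2.

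The Illumina test was limma's (version 3.58.1, empirical Bayes with a trend), run on log2(FPKM + 0.5) for genes that reached 0.5 FPKM in 3 or more of the 9 libraries. Nanopore counts were tested with edgeR 4.0.16 (quasi-likelihood, TMM scaling, filterByExpr) in R 4.3.3. All 9 libraries of a platform entered 1 fit, and p-values were adjusted by Benjamini-Hochberg over all genes tested, with a threshold of 0.05. Both tests were tested on simulated data, for genes with more reads than some called members had and with a fixed spread between libraries. In it limma's test was run on CPM, not FPKM. That simulation does not cover calls at low levels. The labels call the replicates independent without naming cultures or crosses, and floors of 3 reads per library cover counting error only.

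The members and gene lists were chosen with earlier results of these data known, so Illumina differences are given as descriptions without p-values. Nanopore p-values are printed and are not taken as independent of that choice. Named members were those called on Illumina with at least 2 FPKM in a group and no overlap between groups (up to 8 per direction), those called on Nanopore, those with at most 3 reads in 1 genotype and at least 20 in another, those nearest the limit, and listed genes. Other members named, such as lncRNA:CR45003, lncRNA:CR45465, CG32506, CG46275 and the most abundant genes, were chosen after their values were seen, as were the runs of copies. Names and overlaps came from the Ensembl annotation BDGP6.54 (release 115), which held 406 of the members by ID, 395 of them with the same coordinates.

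Same-numbered Illumina libraries of dec2P384R and control deviated together (r = 0.39, 0.18 and 0.44 for replicates 1, 2 and 3). These numbers were taken to pair the samples, from the data and not the labels, by a rule of at least 0.1 in every replicate. The other comparisons did not meet this. On Illumina dec2P384R against dec2WT fell short in replicate 2 only (r = 0.37, 0.076 and 0.36). The pairing is thus uncertain, and the main fits do not use it. Alternatives were other pseudocounts, filters, scalings and tools, the replicate block, the compared libraries alone, and leaving out each library in turn.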

Additional observations from a re-analysis of the deposited data

How the results depend on the processing

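No called member changed direction under the alternatives run on its own platform. Of 27 Illumina differences of single members, 12 were called under every alternative that tested them and 15 lost the call under at least 1. For the 2 differences of lncRNA:CR45003 among the 12, the 3 fits without a control library gave no test, as it then fell under the filter. Of 10 on Nanopore, 8 kept it and 2 lost it, CG45487 in dec2P384R against control and CG45492 in dec2WT against control. DESeq2 on recovered Illumina reads called 16 members in dec2P384R against control, 20 in dec2WT against control and 9 in dec2P384R against dec2WT. Its share over all genes was higher too, at 3.45%, 3.14% and 1.14%, against 2.8%, 2.61% and 0.783% by limma. On Nanopore DESeq2 called 5 in dec2P384R against control and 7 in dec2P384R against dec2WT, beside 0.754% and 0.3% of all genes. With only the compared libraries, Illumina calls in dec2P384R against dec2WT numbered 3, beside 0.661% of all genes. Without the runs of copies and Sdic-named members, an alternative chosen after seeing the data, Nanopore calls numbered 0 in dec2P384R against control, 2 in dec2WT against control and 1 in dec2P384R against dec2WT. The share of RNA from the stretch was 1.49% on Illumina and 1.50% on Nanopore without whe, against 1.73% and 1.99% with it. The cause of these differences was not tested, other than fewer genes or libraries by construction.

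With replicate number as a block, Illumina calls numbered 12 in dec2P384R against control, beside 3.76% of all genes. In that comparison the numbers were taken to pair the samples, which the labels do not state. There CG32506 lost its call and Cyp6t1, CG32521 and CG34332 gained one. In the other comparisons, where the numbers were not taken to pair the samples, the block gave 17 Illumina calls in dec2WT against control and 8 in dec2P384R against dec2WT, and 1, 5 and 3 on Nanopore. The shares of all genes were 3.53% and 0.969% on Illumina, and 0.342%, 0.597% and 0.105% on Nanopore.

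Leaving out 1 library at a time gave 3 to 10 Illumina calls in dec2P384R against control, 5 to 13 in dec2WT against control and 3 to 7 in dec2P384R against dec2WT. The shares of all genes called then ran over 1.34% to 2.65%, 1.36% to 2.9% and 0.419% to 0.772%. The Nanopore calls ranged over 1 to 4, 4 to 7 and 3 to 3 in the same comparisons. Their shares of all genes were 0.234% to 0.606%, 0.425% to 0.831% and 0.0866% to 0.147%. Without Nanopore dec2WT replicate 1, the library with high clock genes, Nanopore calls numbered 2, 4 and 3, beside 0.503%, 0.58% and 0.0866% of all genes.

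Nanopore counts of jb and CG15322 were too low to be tested at this depth. Both long non-coding RNAs have no row in the Nanopore table, as have 13 other members with at least 10 Illumina reads in every library.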
